A study of Mus musculus with 12 samples.

Results

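The 43 genes described here were chosen by name as known mRNA targets of FMRP in brain, and they were followed in fetal mouse ovary. FMRP is the RNA-binding protein encoded by Fmr1. The rule for choosing them used no value measured in the ovary, although earlier results of these data were known when the list was drawn up. All 43 identifiers were among the 55416 annotated genes of the count files, and all 43 passed the filter on low counts that left 23698 genes for testing. By role they fell into 11 genes of the cytoskeleton and its motors, 3 of synaptic signalling, 3 of the cell surface and endocytosis, 7 of the ubiquitin system, 14 of chromatin and transcription, 2 of growth control, and 3 of translation and mRNA turnover.

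FMRP binds mRNAs largely along their coding sequence and travels with ribosomes, and in neurons it is best known for holding back the translation of long mRNAs. Its brain targets encode synaptic scaffolds, cytoskeletal giants, ubiquitin ligases and chromatin regulators, and loss of FMRP causes fragile X syndrome. In the ovary, expanded repeats in the human gene are linked to early loss of ovarian function, and FMRP is found in fetal germ cells.

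Whole ovaries came from mouse embryos at E16.5, either with Fmr1 knocked out (KO) or wild type (WT), and 5 pairs of ovaries were pooled for each sample. Each genotype had 3 input libraries, of total RNA from the homogenate, and 3 libraries of RNA immunoprecipitated with the anti-FMRP antibody ab17722 (RIP). All 12 carried the same strain label, B6.129P2-Fmr1tm1Cgr/J, the WT samples included, and the WT input was taken from littermates. The allele is a germline knockout, so every cell type of the organ carries it. Zygosity is not stated in the labels.

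The input libraries held 18880238 to 25707718 counted reads. Levels are given per length, as reads per kilobase of exon scaled to library size with TMM factors (RPKM), and values for a genotype run in the order of replicates 1, 2 and 3. Fmr1 itself, the check of the labels, stood at 9.55, 13.7 and 10.4 in the KO input and at 22.8, 23.8 and 24.7 in the WT input. The groups did not overlap, and the log2 change of -1.08 (SE 0.11) had an adjusted p of 0.00775 (edgeR's quasi-likelihood test, adjusted by Benjamini-Hochberg over all genes). In the RIP table the Fmr1 row read 0.388, 0.439 and 0.439 in KO and 1.34, 1.43 and 1.40 in WT. Its mean of 0.906 fell below the minimum of 1 set for testing, so that row was not tested. The files carry no gene names other than identifiers, so the ovary label was not checked against marker genes of germ cells, pregranulosa cells or neurons here.

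Most of the brain targets were well expressed in the fetal ovary. Their median per-length level in WT input was 14.9, against 2.92 for all genes tested, and 38 of the 43 lay above that median of all genes. They were also long: 34 of 43 were among the longest 10% of tested genes, those with at least 8659 bp of exon, and their median exonic length was 15658 bp. For comparison, the 1161 tested genes outside the group whose length and level both lay between the 10th and 90th percentiles of the group (7173 to 25319 bp and 72.9 to 492 CPM, counts scaled to library size) had a median per-length level of 11.5. Those like genes were still shorter (median 10169 bp) and less abundant (median 119 against 284 CPM) than the brain targets, which limits the match. Whether RNA differs between groups because of fewer cells of a type or less RNA per cell cannot be told apart in whole-ovary RNA.

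Eef2, a translation gene, held the highest level of the 43. It encodes the elongation factor that moves the ribosome along the mRNA and stood at 443, 469 and 459 in KO and 467, 447 and 487 in WT, above 99.5% of tested genes. Eif4g1, the scaffold of the cap-binding complex, stood at 53.7, 45.5 and 52.6 in KO and 48.8, 46.4 and 44.4 in WT. Cnot1, the scaffold of the main deadenylase complex, stood at 21.3, 21.3 and 21.7 in KO and 21.5, 21.4 and 21.8 in WT. KO and WT libraries overlapped for all 3 genes, and Cnot1 varied least of the 3.

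The 3 genes of the cell surface and endocytosis had a median per-length level in WT of 47.2, beside 46.6 for the 3 translation genes. Lrp1, a large endocytic receptor, stood at 87.6, 93.5 and 83.3 in KO and 98.2, 78.2 and 82.7 in WT. Cltc, the clathrin heavy chain, stood at 49.4, 48.0 and 46.7 in KO and 48.9, 44.4 and 48.2 in WT. App, the precursor of the amyloid-beta peptide, stood at 26.8, 24.4 and 23.8 in KO and 23.2, 25.1 and 24.8 in WT. The KO and WT libraries of each of the 3 were interleaved. Lrp1 was the next gene of the whole group after Eef2, and its WT libraries did not overlap those of Eef2 above it or of Chd4 (49.5 to 51.8) below it. Cltc, Eif4g1 and Myh10, the genes ranked after Chd4 in WT, overlapped with one another and are not ordered by these libraries.

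Of the 3 synaptic genes, Camk2a and Arc stood near the other end, ranked 41 and 43 of 43 by WT level, and Dlg4 ranked 36. Dlg4, which encodes the postsynaptic scaffold PSD-95, was the most abundant of the 3 at 6.53, 6.72 and 7.55 in KO and 8.05, 7.70 and 7.23 in WT. Camk2a, the alpha subunit of a calcium-dependent kinase of synapses, stood at 1.49, 2.03 and 1.82 in KO and 1.73, 1.85 and 1.88 in WT. Arc, an activity-induced gene that acts on receptor uptake at synapses, stood at 0.187, 0.163 and 0.243 in KO and 0.310, 0.143 and 0.171 in WT. Arc rested on 10 to 24 reads a library and was the least abundant of the 43, at the 7.06th percentile of tested genes. KO and WT overlapped for all 3 synaptic genes.

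The cytoskeletal genes spanned a wide range. Myh10, a nonmuscle myosin heavy chain, led them at 48.9, 46.0 and 48.4 in KO and 46.1, 40.8 and 44.5 in WT. At the low end were Kif5c, a kinesin heavy chain best known from neurons, at 1.79, 1.84 and 1.83 in KO and 2.13, 1.81 and 2.12 in WT, and Ank2, an ankyrin that anchors membrane proteins to spectrin, at 2.00, 2.01 and 2.19 in KO and 2.07, 1.82 and 2.16 in WT. Kif5c and Ank2 had the same WT mean of 2.02 and did not differ beyond their spread. Among the others, Dync1h1, the heavy chain of cytoplasmic dynein, had a WT mean of 24.97 ± 1.58 (SD, n = 3), Map1b, the microtubule-associated protein that is the textbook FMRP target of brain, 8.37 ± 0.381 (SD, n = 3), and the kinesin Kif1b 8.96 ± 0.202 (SD, n = 3). The textbook target therefore ranked 33 of 43 by level.

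The ubiquitin and growth-control genes ranged by WT level from Huwe1, ranked 8 of 43, to Herc1, ranked 34. Huwe1, a giant ubiquitin ligase, stood at 31.3, 35.1 and 31.7 in KO and 32.8, 30.04 and 32.2 in WT. The other 6 ubiquitin genes had WT means from 8.33 (Herc1) to 31.0 (Usp9x), with the ligases Ubr4 at 22.6, Mycbp2 at 12.9 and Herc2 at 11.8 and the inhibitor of apoptosis Birc6 at 11.7. Nf1, which switches off Ras, stood at 16.3, 19.4 and 18.3 in KO and 18.9, 17.1 and 17.4 in WT. Apc, a scaffold of beta-catenin destruction, stood at 8.28, 8.83 and 9.42 in KO and 8.28, 8.23 and 8.73 in WT. Neither growth-control gene separated the genotypes.

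The chromatin genes were led by Chd4, the remodelling ATPase of the NuRD complex, and ranged in WT mean from 50.9 ± 1.18 (SD, n = 3) for Chd4 to 0.992 ± 0.183 (SD, n = 3) for Adnp, a homeobox protein of a chromatin-binding complex. Kmt2a and Kmt2d, histone H3 methyltransferases, had WT means of 12.1 and 16.8, Nsd1, another histone methyltransferase, 24.6, Trrap, a scaffold of acetyltransferase complexes, 14.9, and Spen, a transcriptional corepressor, 7.16. Adnp (ENSMUSG00000051149, chromosome 2, 168022906 to 168049032) is a special case of counting. Of its 5350 bp of exon, 82.1% lies under the exons of another annotated gene on the same strand, and only 957 bp are its own. The counting command named no option for reads that lie over several genes, and that other gene had 0 reads in all 6 input libraries. Adnp itself had 95 to 134 reads a library, which per kilobase of its unshared exon gives 5.55 in WT and 5.20 in KO. Its level is therefore not comparable with the levels of the other 42 genes, each of which has over 90% of its exon to itself.

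**Figure D1:**
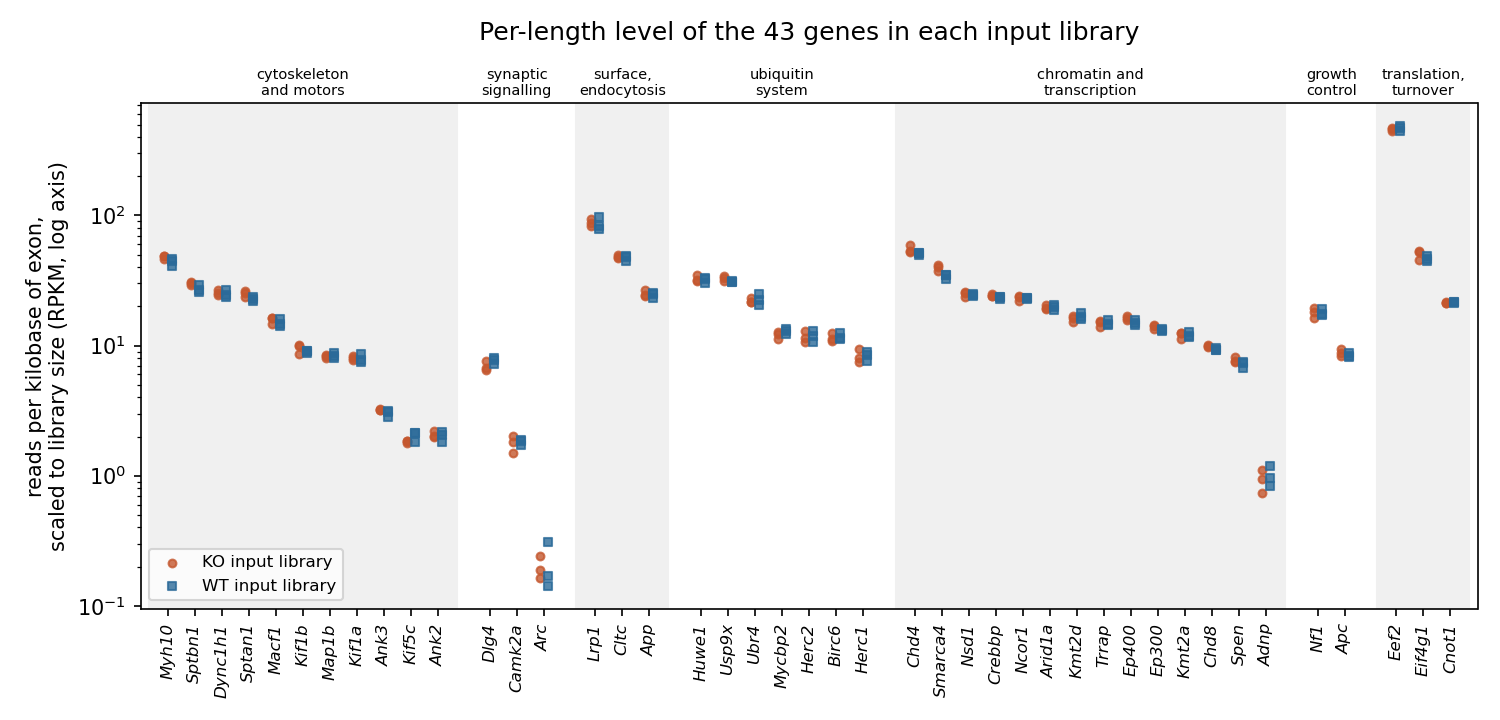
Per-length level of each of the 43 genes in the 3 KO (circles) and 3 WT (squares) input libraries, on a log axis in reads per kilobase of exon scaled to library size (RPKM), grouped by role and ordered by level. The libraries of a gene lie close together compared with the distance between Eef2 at 443 to 487 and Arc at 0.143 to 0.310, and Adnp is low with 17.9% of its exon unshared.

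None of the 43 genes passed the test for a change in input RNA between KO and WT. The lowest adjusted p among them was 0.444, and over all genes 10 of 23698, or 0.0422%, were called. At an unadjusted p under 0.05, 3 of the 43 were higher in KO and 0 were lower, against 2.90% and 3.00% of all genes, in edgeR's quasi-likelihood test. DESeq2 called 0 of the 43 and put the same number, 3 higher and 0 lower, under an unadjusted p of 0.05. The estimates ran from -0.15 (Kif5c) to 0.22 (Smarca4) on the log2 scale, that is from 90.2% to 116% of the WT mean. With a library left out, 1 (without KO replicate 3) to 5 (without KO replicate 1 or 2) of the 43 were higher and 0 to 1 lower at an unadjusted p under 0.05, and 5 were higher with RLE size factors. Shares of all genes at that p are not given for these settings, so these counts describe only the 43.

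Smarca4 (ENSMUSG00000032187, chromosome 9, 21527465 to 21615526), the ATPase of the SWI/SNF chromatin remodelling complex, had the largest estimate. It stood at 37.3, 40.1 and 41.5 in KO and 34.7, 32.3 and 34.97 in WT. Every KO library lay above every WT library. Its KO mean was 116% of its WT mean, and the log2 change of 0.22 (SE 0.063) had an adjusted p of 0.444 in edgeR's test.

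Both spectrin genes followed at the same size. Sptbn1 (ENSMUSG00000020315, chromosome 11, 30049395 to 30218175), the beta chain of the widely expressed spectrin, stood at 29.3, 30.7 and 30.1 in KO and 29.0, 26.7 and 25.9 in WT. Its alpha partner Sptan1 (ENSMUSG00000057738, chromosome 2, 29855572 to 29921463) stood at 23.6, 26.4 and 25.4 in KO and 22.9, 23.5 and 22.2 in WT. The genotypes did not overlap for either chain, although the lowest KO library of Sptbn1 was only just above its highest WT library. The log2 changes were 0.14 (SE 0.059) for Sptbn1 and 0.14 (SE 0.061) for Sptan1, with adjusted p of 0.762 and 0.809 in edgeR's test.

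In 9 of the 43 genes, or 20.9%, every KO library lay above every WT library, and in 0 every KO library lay below. Over all genes tested the shares were 5.22% and 5.69%. The 9 were Smarca4, Chd4, Crebbp, Ep300, Ep400 and Chd8 of the chromatin genes and Sptan1, Sptbn1 and Ank3 of the cytoskeletal genes. For a single gene, 3 libraries against 3 allow no p below 0.1 in a two-sided exact permutation test, and each of the 9 had p = 0.1. Among the like genes the shares were 5.34% and 6.12%. Of the 112 genes in the narrower band, the 25th to 75th percentiles of length and level, 10 (8.93%) had KO higher and 6 lower. Genes of that band were still shorter (median 13670 against 15658 bp) and less abundant (median 204 against 284 CPM) than the brain targets.

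The 6 chromatin genes of that kind encode remodellers and acetyltransferases. Chd4 stood at 53.6, 51.9 and 59.5 in KO and 51.3, 51.8 and 49.5 in WT. Ep400, the ATPase of the TIP60 complex, stood at 15.7, 17.0 and 16.2 in KO and 14.8, 14.3 and 15.6 in WT. Chd8, a remodeller linked to autism, stood at 9.78, 9.87 and 10.1 in KO and 9.23, 9.55 and 9.22 in WT. In all 3 the nearest KO and WT libraries lay closer together than the libraries within a genotype spread. Crebbp and Ep300, the paired histone acetyltransferases CBP and p300, showed the same order. Crebbp stood at 23.9, 24.2 and 25.03 in KO and 23.8, 22.8 and 23.6 in WT, and Ep300 at 13.5, 14.3 and 14.1 in KO and 13.0, 13.2 and 13.3 in WT. The log2 changes of these 5 genes ran from 0.060 (Crebbp, SE 0.058) to 0.13 (Ep400, SE 0.062).

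Groups that do not overlap stay apart when a library is left out, so the count of 9 could then only stay or rise. Leaving libraries out therefore does not test whether the 9 rest on single libraries. When each library was left out in turn, 9 to 15 of the 43 genes had KO above WT without overlap and 0 to 2 had the reverse. Over all genes, 9.26% to 11.4% then had KO higher and 10.1% to 11.5% had KO lower. These shares are larger since fewer libraries have to be separated. The count stayed at 9 without WT replicate 2, and the highest were 15 without KO replicate 1 and 14 without WT replicate 1. The median of the 43 log2 changes was 0.026 and 27 of 43 estimates (62.8%) were above 0, against a median of -0.0020 and 49.5% over all genes. The median was -0.013 without WT replicate 2, 0.059 without KO replicate 1 and 0.061 without WT replicate 1.

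By role, the positive estimates were spread unevenly. Of the 11 cytoskeletal genes 9 had an estimate above 0 with a median of 0.075, and of the 14 chromatin genes 10 did with a median of 0.040. Myh10 had a log2 change of 0.13 (SE 0.061), and Ank3, the ankyrin of axon initial segments, stood at 3.27, 3.20 and 3.19 in KO and 3.15, 3.08 and 2.85 in WT. All 3 surface genes had estimates between 0.026 and 0.036, and both growth-control genes were above 0. The ubiquitin genes had 2 of 7 above 0 and a median of -0.016, and the translation genes had 1 of 3 above 0 and a median of -0.0092. Among the ubiquitin genes Mycbp2, a ligase of axon growth, stood at 12.2, 12.8 and 11.3 in KO and 13.4, 12.2 and 13.0 in WT, and had the lowest estimate at -0.093 (SE 0.064). All 3 synaptic genes had estimates below 0, led by Dlg4 at -0.14 (SE 0.074), with an unadjusted p of 0.0640 in edgeR's test. None of these group differences was itself tested.

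**Figure D2:**
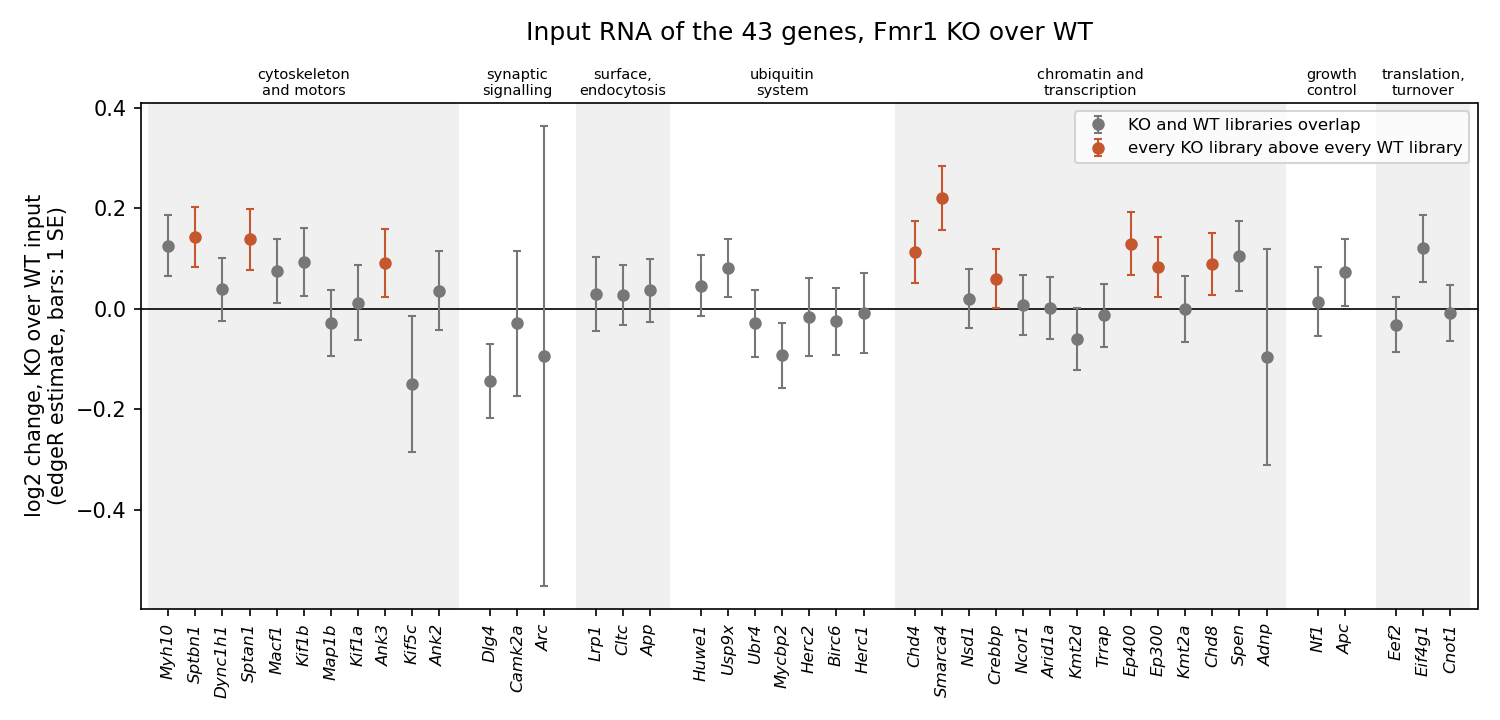
Log2 change of input RNA, KO over WT, for each of the 43 genes, as estimated by edgeR with bars of 1 standard error, grouped by role. The 9 genes in which every KO library lay above every WT library are orange, Smarca4 is highest at 0.22, and the widest bars belong to Arc and Adnp, which rest on few reads.

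The RIP table holds the fold enrichments that the authors deposited for each RIP library. A gene can have several rows. Neither the reference of the ratio nor the position of a row along its gene is stated in the sources used here. Rows of 1 gene may overlap, so they are not replicates of each other. The question was whether the rows of the brain targets were higher in WT, where the antibody can find FMRP, than in KO, which serves as the background of the antibody.

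The brain targets were well represented in that table. Of the 43 genes 37 (86.0%) had at least 1 row, against 29.6% of all genes tested in input, 76.2% of the like genes and 84.8% of those in the narrower band. They had 313 rows, with a median of 8 a gene, where all genes with rows had a median of 1, the like genes 2 and the narrower band 3. Huwe1 and Lrp1 had 28 rows each, Dync1h1 25 and Chd4 15. Across the 43 genes, the number of rows rose with the WT input level in CPM (Spearman's rho 0.69), and the same measure against exonic length was 0.051. The genes share the same libraries, so both are descriptions.

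The 6 genes without a row were all 3 synaptic genes, Kif5c, Ank2 and Kmt2a. In WT input Arc stood at 0.635 CPM, Camk2a at 13.6, Kif5c at 14.4, Ank2 at 71.6, Dlg4 at 101 and Kmt2a at 201. Apart from Adnp, the least abundant gene with a row was Kif1a at 74.2 CPM. So 4 of the 6 were less abundant than every other gene with rows but Adnp, and Dlg4 and Kmt2a were not. A gene without a row has no RIP value here, which is not a value of 0.

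None of the 313 rows passed the test for a difference between WT and KO. The lowest adjusted p was 0.375 (limma on log2 of value plus 1, with Benjamini-Hochberg adjustment), and over all rows 0 of 14365, or 0%, were called. At an unadjusted p under 0.05, 25 rows (7.99%) in 11 genes were higher in WT and 2 rows (0.639%) were higher in KO, against 5.98% and 2.88% of all rows. In 35 rows (11.2%) every WT library lay above every KO library and in 11 (3.51%) the reverse held, against 8.39% and 6.77% of all rows. With a library left out, 18 to 29 rows were higher in WT at that p and 1 (without WT replicate 1) to 6 (without WT replicate 3) in KO, with 5 without KO replicate 2. Shares of all rows at that p are not given for these settings, so these counts describe only the 313 rows. The counts of rows without overlap, 35 and 11, can only stay or rise when a library is left out. They became 48 to 67 rows with WT higher (67 without KO replicate 3, 55 without WT replicate 1 and 54 without WT replicate 2) and 18 to 28 with KO higher. Of all rows, 12.9% to 15.7% and 10.8% to 14.3% were then of those kinds.

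Rows of like genes showed much the same lean. Of them 8.48% were higher in WT at an unadjusted p under 0.05 and 2.47% higher in KO, and 11.9% had WT above KO without overlap. In the narrower band the shares with WT higher were 10.2% and 13.7%. The shares with WT higher were thus above those of all rows and not above those of genes of like length and level. Over all 313 rows 56.5% had an estimated log2 difference above 0, that is higher in WT, against 57.9% for the like genes and 49.8% for the rows of all genes tested in input. The median over the rows of the brain targets, taken in each library by itself, was 1.99, 1.98 and 2.05 in KO and 1.99, 2.13 and 2.06 in WT. The KO and WT libraries overlapped.

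With 1 row per gene, the one of highest mean, 24 of the 37 genes (64.9%) had an estimate above 0 with a median of 0.084, against 47.9% of all genes with rows. The like genes had 55.2% and a median of 0.027. The highest of many rows lies higher than the highest of few, and the brain targets have more rows, so levels of that row are not compared between the sets. Kif1a alone had an unadjusted p under 0.05 with WT higher and no gene had one with KO higher, against 5.64% and 3.09% of all genes with rows. The genotypes did not overlap with WT higher in 2 genes, Kif1a and Smarca4, and with KO higher in 0, against 7.26% and 6.16%. The median was 0.16 without KO replicate 1, 0.14 without WT replicate 1 and 0.046 without KO replicate 2. With the row of lowest mean it was 0.020, with 20 of 37 above 0, so that the lean rested in part on which row stood for a gene.

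Sptbn1 was the gene of the 43 with the most rows at an unadjusted p under 0.05. All 11 of its rows were higher in WT on average, by 1.27 to 1.76 times. In 9 of them every WT library lay above every KO library, against 8.39% of all rows. Sptbn1 had 9 with WT higher at an unadjusted p under 0.05 in limma's test, against 5.98% of all rows. The median over its 11 rows, taken in each library by itself, was 1.18, 1.12 and 1.22 in KO and 1.95, 2.22 and 1.82 in WT. By that median each KO library lay near 1 and each WT library near 2. The row with the largest ratio read 0.981, 0.995 and 1.10 in KO and 1.53, 2.27 and 1.61 in WT, a ratio of 1.76 with a log2 difference of 0.46 (SE 0.11) and an adjusted p of 0.414 in limma's test. The row with the highest enrichment read 2.74, 3.20 and 6.53 in KO and 5.44, 5.42 and 4.92 in WT, and there 1 KO library lay above all WT libraries.

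Of the 63 genes with at least 10 rows in the table, 13 were brain targets. In 4 of the 63 (6.35%) all rows were higher in WT, Sptbn1 among them. Sptbn1 was singled out after its values were seen, and its rows share the same 6 libraries. The 9 rows at an unadjusted p under 0.05 were 9 with pseudocounts of 0.1 and 10, without centring, without the filter and with quantile normalization, and 7 to 10 when each library was left out in turn. All 11 rows stayed higher in WT in each of these settings. Without Sptbn1, 16 of the other 302 rows (5.30%) had an unadjusted p under 0.05 with WT higher in limma's test. In 26 (8.61%) the genotypes did not overlap with WT higher. These shares were near those of all rows (5.98% and 8.39%) and below those of the rows of like genes (8.48% and 11.9%). Both comparison sets kept their own highest genes, so the comparison is not like for like.

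**Figure D3:**
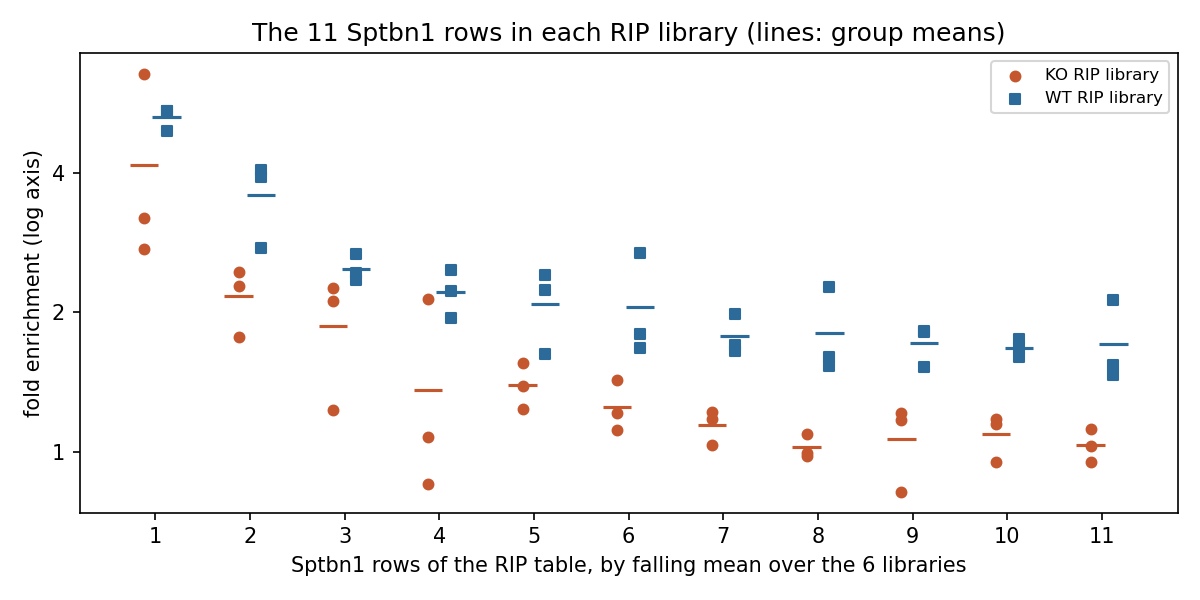
Fold enrichment of the 11 Sptbn1 rows in the 3 KO (circles) and 3 WT (squares) RIP libraries on a log axis, ordered by mean, with short lines for the group means. The WT mean lies above the KO mean in every row, by 1.27 to 1.76 times, and the genotypes overlap in 2 of the 11 rows, numbers 1 and 4.

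Among the other cytoskeletal genes, Kif1a (ENSMUSG00000014602, chromosome 1, 92943186 to 93029673), the kinesin that carries synaptic vesicle precursors in neurons, had the highest ratio of the whole group in its single row. It read 1.62, 1.14 and 1.55 in KO and 2.61, 2.42 and 3.39 in WT. The genotypes did not overlap. The WT mean was 1.96 times the KO mean, and the log2 difference of 0.64 (SE 0.14) had an adjusted p of 0.375 in limma's test. Its input RNA stood at 8.25, 7.73 and 8.08 in KO and 8.55, 7.54 and 7.76 in WT, with full overlap.

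Sptan1, the partner of Sptbn1, had 3 of 8 rows higher in WT. Its row 2, counted by falling mean, read 2.55, 2.07 and 2.42 in KO and 3.83, 3.45 and 3.84 in WT, a ratio of 1.58 without overlap. Macf1, a giant crosslinker of actin and microtubules, had 5 of 6 rows higher in WT. Its row 4 read 1.24, 1.30 and 1.62 in KO and 1.66, 2.43 and 2.20 in WT, while its input level was 14.6, 16.3 and 16.2 in KO and 16.0, 14.1 and 14.6 in WT. Map1b, Kif1b and Ank3 each had 2 rows, all 6 of them lower in WT on average. The upper Map1b row read 1.59, 2.08 and 2.40 in KO and 1.29, 1.64 and 2.35 in WT, a ratio of 0.870 with overlap, so for the textbook brain target the estimate pointed to KO and no difference was called. Dync1h1 had 9 of 25 rows and Myh10 6 of 10 rows above 0.

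In the ubiquitin system 39 of 62 rows (62.9%) were above 0, near the 57.9% of the rows of like genes, and 28 of the 62 were rows of Huwe1. Huwe1 had 19 of 28 rows above 0. It had 4 with WT above KO without overlap, against 8.39% of all rows and 11.9% of the rows of like genes. Its row 3 read 2.35, 2.49 and 2.89 in KO and 3.40, 4.16 and 4.25 in WT, a ratio of 1.53. Usp9x, a deubiquitinase, had 8 of 12 rows above 0. It had 3 with WT higher without overlap and 1 with KO higher, against 8.39% and 6.77% of all rows. Its row 4 read 1.81, 2.24 and 1.96 in KO and 3.32, 2.74 and 3.49 in WT, and its row 7 read 1.76, 1.75 and 1.77 in KO and 2.31, 2.40 and 2.101 in WT. Its input level was 33.1, 34.2 and 31.1 in KO and 31.2, 31.0 and 30.8 in WT.

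Birc6 held the next highest ratio of the group. Its row 3 read 1.501, 1.77 and 1.18 in KO and 3.18, 2.26 and 2.74 in WT, a ratio of 1.84 without overlap, and its input level was 10.8, 12.5 and 11.3 in KO and 12.5, 11.3 and 11.4 in WT. That row is also listed under a gene on the opposite strand whose exons overlap Birc6, so its source cannot be told apart from these values. In all, 21 of the 313 rows are listed under another gene as well, including all 3 of Adnp. Ubr4 had 1 of 5 rows above 0, Herc1 4 of 7, Mycbp2 its single row and Herc2 none of 1. The Mycbp2 row read 2.59, 3.44 and 3.94 in KO and 4.97, 1.88 and 4.03 in WT.

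The chromatin genes included 6 of the 9 genes whose KO input lay above WT without overlap. Their rows showed no common lean in the RIP, with 53 of 103 (51.5%) above 0. Smarca4 had 7 of 9 rows above 0. It had 3 with WT above KO without overlap and 1 with the reverse, against 8.39% and 6.77% of all rows. Its top row read 6.12, 5.40 and 5.87 in KO and 6.67, 7.40 and 6.57 in WT, a ratio of 1.19. Its row 6 read 2.02, 1.86 and 2.14 in KO and 2.54, 2.87 and 3.26 in WT, a ratio of 1.44. Crebbp had 8 of 12 rows above 0 and Ncor1, a nuclear receptor corepressor, 6 of 8. Ncor1 row 8 read 1.10, 0.973 and 1.23 in KO and 1.47, 1.66 and 1.73 in WT, and its input level was 21.9, 23.7 and 24.2 in KO and 23.4, 23.0 and 23.2 in WT.

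Among the other chromatin genes Trrap, Kmt2d, Spen and Arid1a leaned to KO, and the rest were mixed or leaned to WT. Trrap had 1 of 10 rows above 0, Kmt2d none of 2 and Spen none of 1. Arid1a, the DNA-binding subunit of SWI/SNF, had 3 of 11, and its row 7 read 2.29, 2.75 and 2.58 in KO and 1.65, 1.91 and 1.84 in WT, 1 of the 2 rows with an unadjusted p under 0.05 for KO higher. Its top row read 1.79, 14.8 and 6.42 in KO and 17.9, 2.26 and 2.41 in WT, a spread between replicates of 1 genotype that was far wider than the difference of the means. Its input level was 19.1, 19.4 and 20.3 in KO and 19.8, 18.6 and 20.4 in WT. All 3 rows of Adnp, shared as stated, were above 0, and the top one read 2.59, 12.3 and 2.09 in KO and 8.29, 7.48 and 4.11 in WT. Chd4 had 7 of 15, Ep400 4 of 8, Ep300 4 of 7, Chd8 5 of 10 and Nsd1 5 of 7 rows above 0.

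The growth-control genes had 10 of 11 rows above 0. Apc had 6 of 6, with ratios of 1.20 to 1.61. It had 2 with WT above KO without overlap, against 8.39% of all rows. Its row 4 read 1.17, 1.13 and 0.938 in KO and 2.00, 1.75 and 1.46 in WT, a ratio of 1.61 with a log2 difference of 0.39 (SE 0.093) and an adjusted p of 0.414 in limma's test. Of the 446 genes with at least 5 rows, 38 (8.52%) had all rows higher in WT, and Sptbn1 and Apc were the 2 among the 26 brain targets of that kind. Nf1 had 4 of 5 rows above 0, and its top row read 2.56, 2.97 and 0.884 in KO and 1.32, 2.96 and 2.30 in WT.

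Translation and surface genes showed small or mixed differences. Cnot1 had the largest log2 difference of the group by its top row, at 0.71 (SE 0.35). It read 1.90, 2.35 and 5.92 in KO and 4.91, 5.35 and 6.79 in WT, so that 1 KO library lay within the WT range, and the unadjusted p was 0.0822 in limma's test. All 4 rows of Eef2, the most abundant gene, were above 0, with ratios of only 1.04 to 1.13. Eif4g1 had 3 of 8 rows above 0. Cltc had 10 of 14, and its row 3 read 2.19, 2.46 and 3.68 in KO and 5.10, 3.50 and 4.405 in WT, with overlap. Both App rows were above 0, and the upper one read 2.24, 2.81 and 2.79 in KO and 3.10, 3.46 and 2.61 in WT.

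Lrp1 had 11 of 28 rows above 0, against 57.9% of the rows of like genes. None had WT above KO without overlap and 3 had the reverse, against 8.39% and 6.77% of all rows. Its row 16 read 2.13, 2.01 and 2.13 in KO and 1.37, 1.68 and 1.76 in WT, a ratio of 0.767 and the other row with an unadjusted p under 0.05 for KO higher. Its top row read 2.42, 4.90 and 3.30 in KO and 3.08, 4.15 and 5.34 in WT, a ratio of 1.19 with overlap. Lrp1 and Huwe1 thus had equal numbers of rows, with 11 and 19 of them above 0.

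**Figure D4:**
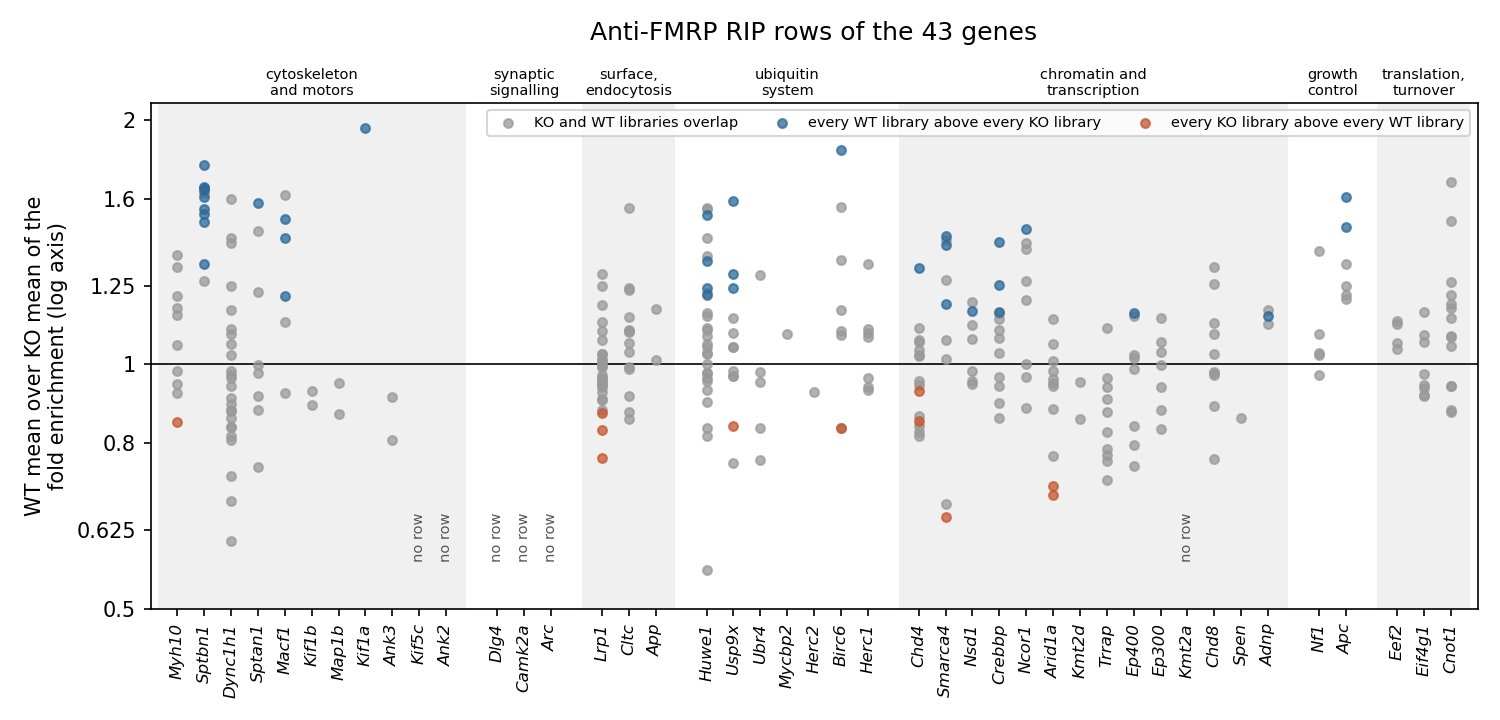
Ratio of the WT mean to the KO mean of the fold enrichment for each of the 313 RIP rows of the 43 genes, on a log axis, grouped by role, with rows blue where every WT library lay above every KO library, orange for the reverse and grey where they overlap. The 11 Sptbn1 rows lie between 1.27 and 1.76, Kif1a is highest at 1.96, and rows of Lrp1, Dync1h1 and Trrap lie mostly below 1.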

How the data were processed

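Input files hold read counts per gene that the authors deposited without normalization, made with featureCounts 1.6.3 over exons of Ensembl release 104, per the file headers. The command had no option for strand or for reads over several genes, so counts of genes that overlap, on either strand, are uncertain. GRCm38, MACS2 2.1.0, BWA 0.7.12, FastQC and DESeq2 1.26.0 appear, without a role, in the submitters' processing notes. Coordinates are those of the count files, and 0 of the 43 starts matched the RefSeq table of GRCm38.p6. Gene names were given with the identifiers of the group; all 43 lay on the chromosome that table names, 35 with a span within 1%. RIP values are fold enrichments on a linear scale (a ratio), which the authors deposited for 14447 rows of 7525 genes; the depth behind it is unknown.

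For counts, KO over WT was tested in R 4.3.3 with edgeR 4.0.16 (TMM, filterByExpr, robust quasi-likelihood test), and RIP ratios with limma 3.58.1 on log2(value + 1), which understates changes of low values, centred on column medians, WT over KO, using the 14365 rows whose mean reached 1, both with Benjamini-Hochberg adjustment at 0.05 over the whole table. RIP folds are ratios of group means. Both steps were tested on simulated data. DESeq2 1.42.0, other scalings, filters, pseudocounts and left-out libraries were alternatives. Per-library values are given for the highest gene of each role, the 5 highest and 5 lowest by level, those with an unadjusted p under 0.05 and, in each role, the largest input and RIP differences; genes whose groups did not overlap were added after their values were seen. The narrower comparison band, the counts without Sptbn1, the Sptbn1 counts under other settings and the left-out counts of groups without overlap were also added after seeing the data. The 43 genes, their roles and the tests were chosen with earlier results of these data known. P-values measure the spread between pools of 5 ovary pairs, which the labels call biological replicates. Other published FMRP targets and cell type markers were not analysed here.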

Additional observations from a re-analysis of the deposited data

How the results depend on the processing

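Under every alternative run, 0 of the 43 genes were called in input and 0 of their rows in the RIP. Over all genes, the 10 input calls became 37 with DESeq2, 113 without the filter and 5 to 37 with a library left out (37 without KO replicate 1, 28 without WT replicate 2, 5 without KO replicate 2), and the 0 RIP rows became 1 without the filter. The median RIP difference of the genes, 0.084, ran from 0.046 to 0.16 with a library left out, and the median level was 24.03 as TPM, which is another scale. Small estimates changed sign. The input change of Arid1a, 0.0019, was -0.0041 without the filter. With a library left out, input changes ran from -0.088 to 0.025 (Birc6), -0.016 to 0.073 (App), -0.14 to 0.084 (Camk2a), -0.025 to 0.068 (Kif1a), -0.0080 to 0.076 (Huwe1), -0.042 to 0.079 (Nf1), -0.24 to 0.053 (Adnp), -0.017 to 0.048 (Ncor1), -0.037 to 0.13 (Lrp1), -0.30 to 0.33 (Arc), -0.032 to 0.088 (Ank2), -0.032 to 0.030 (Arid1a) and -0.015 to 0.054 (Cltc). RIP differences of the highest row ran from -0.24 to 0.11 (Macf1), -0.21 to 0.43 (Cltc), -0.16 to 0.35 (Mycbp2), -0.39 to 0.033 (Ep300), -0.10 to 0.31 (Huwe1), -0.066 to 0.19 (Chd8), -0.081 to 0.22 (Eif4g1), -1.04 to 0.38 (Arid1a), -0.27 to 0.29 (Nf1), -0.13 to 0.20 (Ep400) and -0.52 to 0.086 (Chd4). The cause of these moves was not tested. KO and WT samples with the same replicate number did not deviate together in input (correlations of -0.071, -0.034 and -0.044). In RIP they deviated in opposite directions (-0.60, -0.34 and -0.22), and the cause was not tested. The numbers were therefore not taken as pairs. With the replicate number as a block, 20 input genes and 0 of the 43 were called, and 0 RIP rows. Arc and Adnp rest on few reads, and the counting error of the RIP ratios is unknown.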
